A study of Mus musculus with 12 samples.

Results

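Hair keratin-associated proteins were followed here on 12 whole-transcript microarrays of sorted mouse dorsal skin cells. The members are the 45 probe sets, of 35512 in the table, whose listed gene symbols all begin with Krtap and a digit. They cover 44 genes in 21 numbered families, and 1 probe set lists both Krtap5-3 and Krtap5-2. The arrays form 4 groups of 3, compared within 2 sets. In the bulge set, clock-positive (Venus bright) and clock-negative (Venus dim) hair follicle stem cells came from Per1-Venus reporter mice 18 to 19 days old, sorted as alpha6 integrin bright and CD34 positive, with about 20 mice pooled per sample. The labels of both bulge groups carry the same Venus-high gate, so titles and the series design were used to part them. In the epidermis set, basal cells of the interfollicular epidermis (IFE) were taken at 1 year of age from wild-type mice or from mice lacking Bmal1 in the epidermis (KO), with 5 mice per sample; Bmal1, encoded by Arntl, is a transcriptional activator of the circadian clock. The driver of the knockout, the strain and the time of day are not given in the sources used here, and per the labels no treatment preceded sorting.

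Hair keratin-associated proteins are small proteins that embed and cross-link the keratin filaments of the hair shaft. They fall into high-sulfur and ultra-high-sulfur proteins, rich in cysteine, and high glycine-tyrosine proteins. They are made late in shaft differentiation, in cortex and cuticle cells that descend from the matrix of a growing follicle, where the factors LEF1 and HOXC13 are known to act on hair keratin genes. The bulge holds stem cells that feed the follicle and is not itself a site of shaft formation.

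Values are deposited log2 intensities, and a difference of 1 is a doubling. Array medians ran from 6.82 to 7.01 in the bulge set and from 7.75 to 7.80 in the epidermis set. The 2 sets hold values for different probe sets and are tested apart. Per1, the source of the reporter, was higher in clock-positive cells by 0.51 ± 0.07 (SE, adjusted p = 0.00251). Arntl and Nr1d1, read on the same bulge arrays, did not pass in limma. They changed by 0.16 ± 0.07 (adjusted p = 0.0823) and 0.08 ± 0.06 (adjusted p = 0.345). CD34 was part of the bulge sort, and Cd34 read 10.95 to 10.98 on the clock-positive and 9.44 to 9.58 on the clock-negative arrays. Krt14 and Krt5, keratins of basal cells, read between 12.06 and 13.66 on all 12 arrays. Arntl read 9.27, 9.47 and 9.34 in wild type and 9.85, 9.60 and 9.55 in the KO, by 1 probe set whose place relative to the deleted part is not known here, so it checks nothing. Its target Nr1d1 fell by 3.98 ± 0.12 (SE) in the KO (adjusted p = 0.000325). The number of arrays limits the precision. Samples are pools of mice, and p-values measure the spread between pools.

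The genes lie in 4 clusters on mouse assembly GRCm38.p6, by the RefSeq annotation. Chromosome 16 holds 21 of the 44 genes within 960 kb, chromosome 11 holds 15 within 444 kb, chromosome 7 holds 5 within 130 kb and chromosome 10 holds 3 within 117 kb. Their upstream sequence is shown because members of 1 family can be compared letter by letter. RefSeq gave a promoter window for 40 of the 44 genes. The 150 bases before the annotated start are printed 5′ to 3′ on the gene's strand for the 6 members with the largest difference between the bulge groups. Capitals mark TATAAA or TATATAA, the TATA box, and CTTTGA or CTTTGT, the core bound by LEF1 and TCF factors, on either strand.
Krtap6-1, chr16:89031549-89031698, plus strand: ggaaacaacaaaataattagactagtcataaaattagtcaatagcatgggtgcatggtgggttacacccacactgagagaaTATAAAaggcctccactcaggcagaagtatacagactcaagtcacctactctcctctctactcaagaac
Krtap6-5, chr16:89047900-89048049, minus strand: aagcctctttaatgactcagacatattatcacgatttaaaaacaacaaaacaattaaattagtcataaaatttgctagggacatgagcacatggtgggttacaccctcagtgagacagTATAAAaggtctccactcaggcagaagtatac
Krtap6-3, chr16:89083874-89084023, plus strand: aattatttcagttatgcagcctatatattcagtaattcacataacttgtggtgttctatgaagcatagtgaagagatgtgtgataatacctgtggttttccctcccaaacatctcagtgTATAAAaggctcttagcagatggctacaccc
Krtap6-2, chr16:89420112-89420261, minus strand: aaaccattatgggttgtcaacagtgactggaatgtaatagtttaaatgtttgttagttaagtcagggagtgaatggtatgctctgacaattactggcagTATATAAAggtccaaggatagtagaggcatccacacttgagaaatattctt
Krtap8-1, chr16:89487953-89488102, minus strand: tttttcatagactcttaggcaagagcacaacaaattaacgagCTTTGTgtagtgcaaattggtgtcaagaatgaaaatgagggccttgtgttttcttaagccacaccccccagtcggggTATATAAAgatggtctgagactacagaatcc
Krtap1-5, chr11:99581017-99581166, minus strand: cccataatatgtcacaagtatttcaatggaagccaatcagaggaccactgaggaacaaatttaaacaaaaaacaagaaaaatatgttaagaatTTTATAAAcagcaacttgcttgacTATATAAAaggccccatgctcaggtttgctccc

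The Krtap6-1 and Krtap6-5 windows shared an unbroken run of 22 bases, ctccactcaggcagaagtatac. It follows closely on the TATA box in both, and in Krtap6-5 it ends at the annotated start. Over the 250 bases before the start, global alignment gave these genes 56.5% identity, and the other pairs of family 6 between 50.7% and 52.9%. Pairs within a family had a median identity of 53.9% (47 pairs), and pairs from different families 51.4% (733 pairs, range 44.7% to 58.1%). Krtap19-1 and Krtap19-2 stood out among these pairs with 90.6% identity and a shared run of 56 bases, followed by Krtap31-1 and Krtap31-2 at 86.9%. The Krtap19 pair is printed next, with Krtap14 and Krtap3-3, whose values did not pass the test in either comparison.
Krtap19-1, chr16:88869411-88869560, minus strand: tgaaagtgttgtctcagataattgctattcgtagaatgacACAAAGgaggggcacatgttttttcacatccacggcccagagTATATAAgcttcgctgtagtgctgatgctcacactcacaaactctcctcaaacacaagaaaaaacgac
Krtap19-2, chr16:88874270-88874419, minus strand: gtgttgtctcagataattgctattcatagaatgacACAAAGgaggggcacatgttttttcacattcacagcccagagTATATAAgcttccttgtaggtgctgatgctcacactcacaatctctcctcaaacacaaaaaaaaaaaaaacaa
Krtap14, chr16:88826146-88826295, minus strand: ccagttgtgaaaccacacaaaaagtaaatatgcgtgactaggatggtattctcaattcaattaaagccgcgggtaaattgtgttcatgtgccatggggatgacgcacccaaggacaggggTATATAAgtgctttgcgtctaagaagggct
Krtap3-3, chr11:99550864-99551013, minus strand: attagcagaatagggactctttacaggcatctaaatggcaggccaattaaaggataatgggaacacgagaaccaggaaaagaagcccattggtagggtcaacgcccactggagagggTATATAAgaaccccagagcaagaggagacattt

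Of the 40 windows of 250 bases, 31 held TATAAA on either strand (77.5%, against 12.4% of 32851 mouse promoter windows). With TATATAA counted too, which overlaps TATAAA where the letters run on, 38 of 40 did (95%, against 13.8%). On the gene's strand, 23 of 40 had TATAAA between 40 and 16 bases before the start (57.5%, against 1.99%). The LEF1 and TCF core stood in 22 of 40 (55.0%, against 27.6%), with 10 of 13 windows of high glycine-tyrosine genes and 3 of 12 of ultra-high-sulfur genes. Genes with and without it had similar bulge changes, with medians of −0.71 (22 genes) and −0.70 (18 genes) on the log2 scale. The canonical E-box CACGTG, a site of CLOCK and BMAL1, stood in 3 of 40 (7.5%, against 6.02%). TCGTAAA, the only form of a HOXC13 site searched, stood in 1 window, that of Krtap11-1 (2.5%, against 0.478%). These are matches of letters, and binding was not measured.

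In the bulge, stem cells were parted by the brightness of the Per1 reporter, to see which genes follow it. Keratin-associated protein probe sets were lower in clock-positive cells: by limma, 38 of 45 fell, 0 rose and 7 had an adjusted p above the 0.05 threshold. Among all 34760 probe sets tested, 23.6% fell and 20.1% rose. The 3 clock-positive arrays lay below all 3 clock-negative arrays for 42 of 45 members, as they did for 31.1% of all probe sets, and the reverse held for 0 members and 27.1% of all. A fall of at least 1.5-fold was called for 28 members, against 5.71% of all probe sets, and such a rise for 0 members, against 3.33%. At an unadjusted p under 0.05, 41 members were lower and 0 higher, where 29.7% and 24.3% of all probe sets were. The median change of the members was −0.72 on the log2 scale, and that of all probe sets −0.05. Averaged over the 45 members, the arrays read 6.22 to 6.30 in clock-positive and 7.09 to 7.12 in clock-negative cells.

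**Figure D1:**
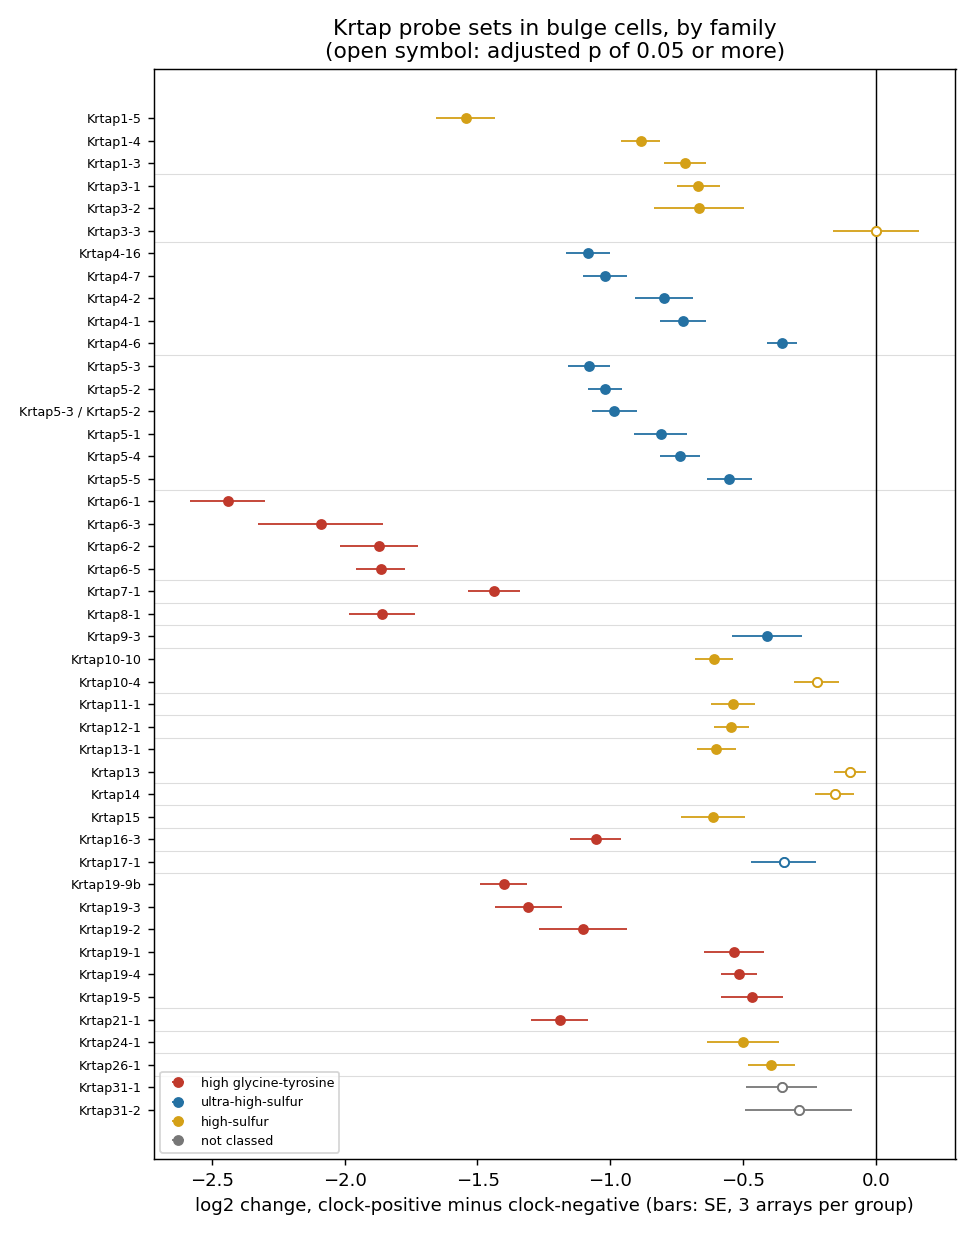
Log2 change of each of the 45 Krtap probe sets between clock-positive and clock-negative bulge cells (x axis, with SE, 3 arrays per group), grouped by family number and coloured by protein class. Filled symbols passed an adjusted p under 0.05; 38 lie to the left of 0 and the 7 open symbols did not pass.

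The high glycine-tyrosine genes, all on chromosome 16, had the largest falls. All 14 of their probe sets fell, 11 of them at least 1.5-fold, with a median of −1.35. Family 6 led, with 4 of 4 probe sets between −2.44 and −1.86. Krtap6-1 read 5.05, 4.65 and 5.14 in clock-positive arrays 1 to 3 and 7.42, 7.23 and 7.51 in clock-negative arrays 1 to 3, a 5.43-fold difference (−2.44 ± 0.14 SE, adjusted p = 0.000178). Every clock-negative array was thus more than 2 log2 units above every clock-positive one. Krtap6-3 read 5.44, 6.48 and 6.03 against 8.16, 7.93 and 8.13, and fell 4.26-fold (−2.09 ± 0.24, adjusted p = 0.00124). Its clock-positive arrays spread by an SD of 0.52, against 0.13 in the clock-negative ones. Krtap6-2 read 5.52, 5.57 and 5.09 against 7.46, 7.18 and 7.15 (−1.87 ± 0.15). Krtap6-5 read 6.08, 5.86 and 5.96 against 7.97, 7.82 and 7.71 (−1.86 ± 0.09). The groups did not overlap for any of the 4. Because these genes are alike in sequence, their probe sets may read more than 1 member and are not separate replicates.

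Families 8 and 7, which encode glycine-tyrosine proteins of the hair cortex in human hair, have 1 probe set each. Krtap8-1 read 7.25, 7.27 and 6.86 in clock-positive and 9.07, 8.86 and 9.02 in clock-negative arrays, a 3.63-fold difference (−1.86 ± 0.12, adjusted p = 0.000225). Krtap7-1 read 6.63, 6.89 and 6.73 against 8.15, 8.08 and 8.34 (−1.44 ± 0.10, adjusted p = 0.000236). Both parted the groups without overlap. Krtap21-1 read 6.48, 6.41 and 6.25 against 7.61, 7.38 and 7.72 (−1.19 ± 0.11), and Krtap16-3 read 5.63, 5.83 and 5.86 against 6.95, 6.69 and 6.85 (−1.05 ± 0.10).

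Family 19 divided in size, though all 6 of its probe sets fell. Krtap19-9b, Krtap19-3 and Krtap19-2 changed by −1.40 ± 0.09, −1.31 ± 0.13 and −1.10 ± 0.16. Krtap19-1, Krtap19-4 and Krtap19-5 changed by −0.53 ± 0.11, −0.52 ± 0.07 and −0.47 ± 0.12, each under 1.5-fold. Krtap19-1 and Krtap19-2, the pair with near-identical upstream sequence, had different point estimates, with 95% intervals of −0.80 to −0.27 and −1.49 to −0.71 that overlap; the difference between them was not tested. Krtap19-9b itself read 6.25, 6.34 and 6.31 against 7.56, 7.86 and 7.69.

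**Figure D2:**
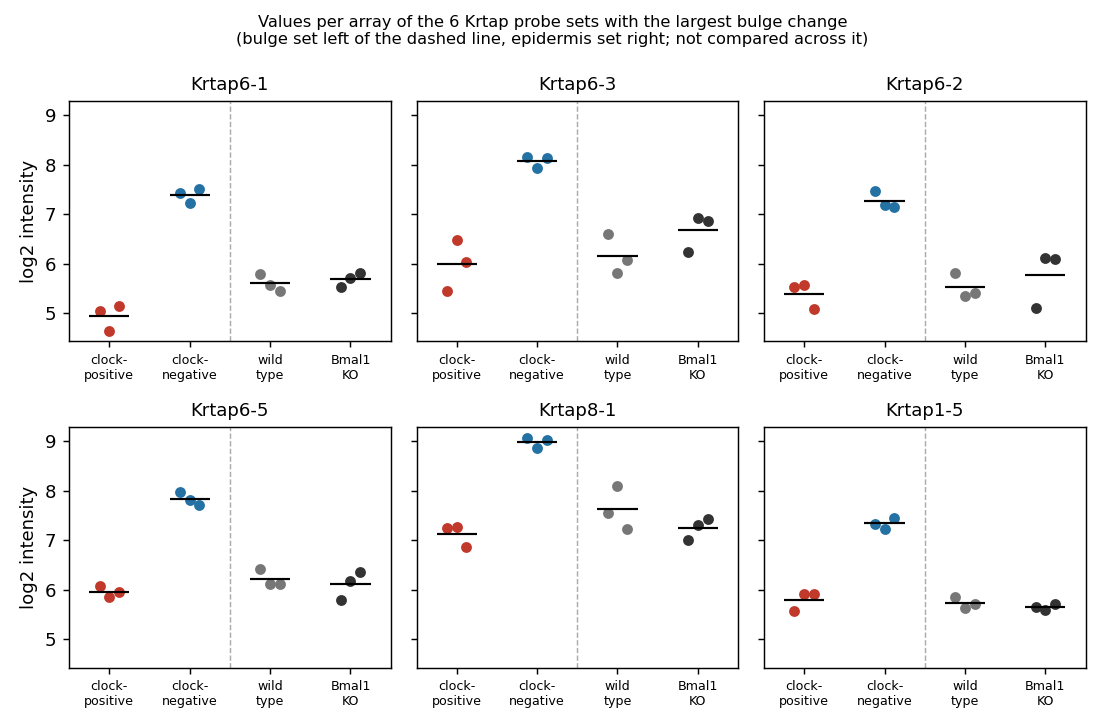
Log2 intensity on each array (points) with group means (lines) for the 6 Krtap probe sets with the largest bulge change, with bulge arrays left of the dashed line and epidermis arrays right of it. In each panel the clock-negative arrays lie above all clock-positive arrays, while wild-type and KO arrays overlap; Krtap6-1 reads 7.23 to 7.51 in clock-negative and 4.65 to 5.14 in clock-positive cells.

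Ultra-high-sulfur genes, which include family 4 on chromosome 11 and family 5 on chromosome 7, fell as 12 of 13 probe sets, 9 of them at least 1.5-fold, with a median of −0.80. In family 5, known from the cuticle of human hair, all 6 fell. Krtap5-3 read 8.16, 8.07 and 8.16 in clock-positive arrays and 9.13, 9.36 and 9.15 in clock-negative arrays (−1.08 ± 0.08, adjusted p = 0.000286). Krtap5-2 changed by −1.02 ± 0.06, and the probe set that lists both genes by −0.98 ± 0.08, so the shared probe set adds no separate evidence. Krtap5-1, Krtap5-4 and Krtap5-5 followed at −0.81, −0.74 and −0.55. In family 4 all 5 fell, from −1.08 ± 0.08 in Krtap4-16 to −0.35 ± 0.06 in Krtap4-6. Krtap4-16 read 5.62, 5.51 and 5.52 against 6.51, 6.62 and 6.78, without overlap. Krtap4-7 and Krtap4-2 changed by −1.02 ± 0.08 and −0.80 ± 0.11. Krtap9-3 fell by 0.41 ± 0.13 (adjusted p = 0.0410), and Krtap17-1, a cuticle protein in human hair, stood at −0.35 ± 0.12 (adjusted p = 0.0533), just above the threshold. Krtap9-3 did not pass after median centring (−0.27, adjusted p = 0.104), nor without any 1 of clock-positive arrays 1 to 3 or clock-negative arrays 2 and 3 (adjusted p from 0.0568 to 0.118). Krtap9-3 did pass after quantile normalization (−0.55, adjusted p = 0.04) and cyclic loess (−0.58, adjusted p = 0.032). Krtap17-1 likewise passed after quantile normalization (−0.52, adjusted p = 0.0374) and cyclic loess (−0.57, adjusted p = 0.0307). It also passed without the dimmest 30% or 50% of probe sets (0.0407 and 0.0347). It did not pass after median centring (−0.205, adjusted p = 0.171). Among the fits without 1 array, it passed only without clock-negative array 3 (adjusted p = 0.0446).

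High-sulfur genes had the smallest median change of the 3 classes, with 12 of 16 probe sets lower, 8 of them at least 1.5-fold, and a median of −0.57. Krtap1-5 was the exception in size: it read 5.57, 5.91 and 5.91 against 7.34, 7.23 and 7.46, a 2.92-fold difference (−1.54 ± 0.11, adjusted p = 0.000265). Its neighbours on chromosome 11, Krtap1-4 and Krtap1-3, changed by −0.89 ± 0.07 and −0.72 ± 0.08. In family 3, known from the cortex of human hair, Krtap3-1 read 7.56, 7.59 and 7.59 against 8.13, 8.40 and 8.21 (−0.67 ± 0.08), and Krtap3-2 stood at −0.67 ± 0.17 (adjusted p = 0.0193). Krtap3-3 in the same cluster read 5.58, 5.77 and 6.05 against 5.63, 6.11 and 5.66, with no difference in mean (0.00 ± 0.16, adjusted p = 0.997).

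The other high-sulfur families lie on chromosomes 10 and 16. Krtap15, Krtap10-10, Krtap13-1, Krtap12-1, Krtap11-1, Krtap24-1 and Krtap26-1 fell by 0.61, 0.61, 0.60, 0.54, 0.54, 0.50 and 0.39, with adjusted p-values from 0.00133 to 0.0242. Krtap24-1 and Krtap26-1 did not pass after median centring, quantile normalization or cyclic loess, where adjusted p ran from 0.0621 to 0.217 and from 0.0691 to 0.337 and the changes were down to −0.25 and −0.15. Krtap24-1 also did not pass without clock-positive array 2 or 3 or without clock-negative array 2 or 3 (adjusted p from 0.062 to 0.0764). Krtap12-1, for one, read 6.29, 6.30 and 6.24 against 6.75, 6.81 and 6.91, groups that lie close but apart. Krtap10-4 at −0.22, Krtap14 at −0.15 and Krtap13 at −0.10 did not pass (adjusted p = 0.0682, 0.124 and 0.219). Krtap31-1 and Krtap31-2, not placed in a class here, were at −0.35 ± 0.13 and −0.29 ± 0.20 (adjusted p = 0.0666 and 0.267). By chromosome, the median change was −1.05 on 16 (21 probe sets), −0.90 on 7 (6), −0.67 on 11 (15) and −0.54 on 10 (3).

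The share of probe sets called lower varied with signal, so the members were set beside probe sets of similar signal. Of 4 equal bins of mean signal, the second, with means from 5.6 to 6.9, was the most one-sided: 40.3% were called lower and 4.97% higher, with a median change of −0.23; of 21 members there 17 were lower, with a median of −0.55. The next bin, from 6.9 to 8.34, had 20.7% lower and a median of 0.06, and there 13 of 13 members fell, with a median of −1.02. Falls of at least 1.5-fold made up 7.65% and 7.02% of all probe sets in these bins, against 10 of 21 and 12 of 13 members. In the dimmest bin 4 of 6 members fell and in the brightest 4 of 5, where 24.2% and 9.24% of all probe sets did. Bins go by the mean over the 6 bulge arrays, so a member can enter a bin on its clock-negative readings. Krtap6-3, in the bin from 6.9 to 8.34, had means of 5.98 in clock-positive and 8.07 in clock-negative cells. The bins therefore do not match signal within clock-positive cells. The table holds no detection values, so whether a low reading is above background is not known here.

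**Figure D3:**
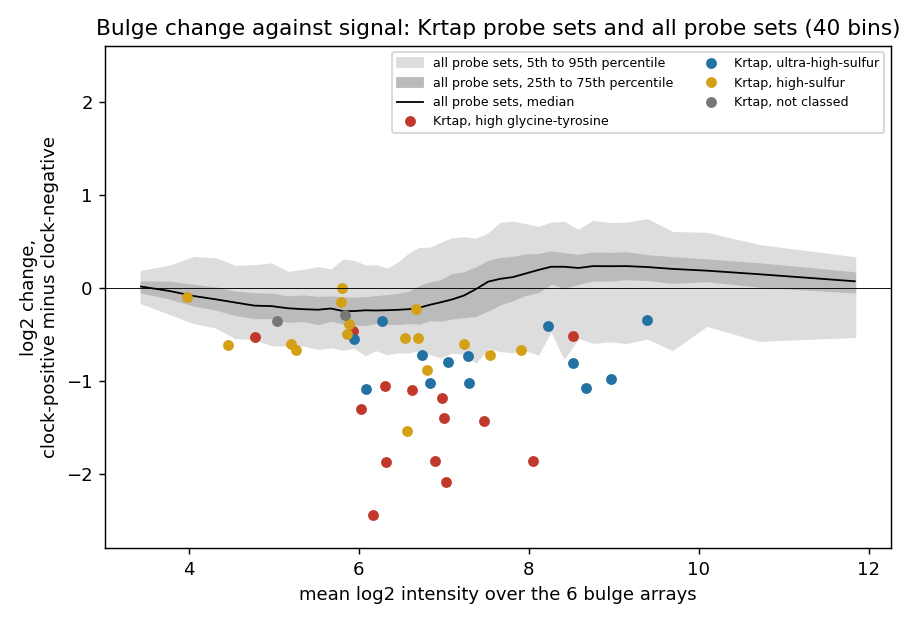
Log2 change between clock-positive and clock-negative bulge cells (y axis) against mean log2 intensity over the 6 bulge arrays (x axis) for Krtap probe sets (points, by class), over the percentile bands of all 34760 probe sets in 40 bins of signal. Several glycine-tyrosine members lie near or below −1.4, under the 5th percentile of probe sets of similar signal, while Krtap13, Krtap14 and Krtap3-3 lie within the bands.

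Other scalings were compared, since they shift all probe sets. After each array was centred on its median, 34 of 45 members were lower (11.9% of all probe sets lower, 32.7% higher). After quantile normalization 33 were lower (11% and 13.4%), and after cyclic loess 32 (12.5% and 11.9%), with 0 members higher under any of the 3. The median of family 14, which is Krtap14 alone, turned to 0.08 and 0.09 under quantile normalization and cyclic loess, and no other family median changed sign. The other 14 probe sets whose symbols mix Krtap genes with predicted gene models were outside the rule. Of these, 12 were measured in the bulge set, and 12 of 12 fell as deposited, all at least 1.5-fold, between −1.74 and −0.67. Of all probe sets, 23.6% fell and 5.71% fell at least 1.5-fold. These 12 may read the same genes as the members and are not separate evidence.

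Other genes of the hair shaft and its sheath moved the same way in part, read against the 23.6% of all probe sets that fell and the 20.1% that rose. Hair keratins, the filament partners of these proteins, fell as 9 of 13 measured genes and 0 rose, with a median of −0.41. Krt33a changed by −0.80 ± 0.07, Krt33b by −0.55 ± 0.06, Krt35 by −0.50 ± 0.09 and Krt86 by −0.41 ± 0.07. The inner root sheath, the sleeve around the growing shaft, had 9 of 11 genes lower and 0 higher, with Krt27 at −1.002 ± 0.07, trichohyalin (Tchh) at −0.91 ± 0.08, Krt28 at −0.78 ± 0.07 and Krt72 at −0.74 ± 0.08. Of 11 further genes of shaft formation 6 fell and 2 rose, but 4 and 4 after median centring, 4 and 3 after quantile normalization and 5 and 1 after cyclic loess. Prr9 changed by −1.15 ± 0.08, Crym by −0.72 ± 0.08 and the desmosomal cadherin Dsg4 by −0.54 ± 0.07, while the transcription factor Msx2 rose by 0.62 ± 0.07. Hair lineage transcription factors went the other way, with 10 of 16 higher and 1 lower, among them Tcf7l1 at 1.11 ± 0.06, Lhx2 at 1.06 ± 0.06, Sox9 at 0.83 ± 0.06 and Dlx3 at 0.75 ± 0.06. Hoxc13 and Lef1, whose motifs were counted above, rose by 0.96 ± 0.11 and 0.66 ± 0.08 (adjusted p = 0.00129 and 0.00143). Several of these factors, such as Lhx2, Sox9 and Tcf7l1, are bulge stem cell genes as well. All 12 genes of the bulge stem cell list rose, Cd34, used in the sort, among them.

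Cells of other kinds may be present in a sort, and their markers were read beside these results and the same shares of all probe sets, 23.6% lower and 20.1% higher. Cornified envelope genes of the upper epidermis fell as 13 of 19 with 1 higher, led by Lce1b at −1.90 ± 0.10 and Lce1c at −1.79 ± 0.09. All 8 T cell genes measured fell, with array means of 7.19 to 7.22 in clock-positive and 8.09 to 8.20 in clock-negative cells. Of 7 melanocyte genes 4 fell and 1 rose (array means 6.56 to 6.62 and 6.74 to 6.83). Fibroblast and papilla genes had 1 of 8 lower and 1 higher (6.60 to 6.63 and 6.65 to 6.81), sebocyte genes 1 of 8 lower and 3 higher (7.89 to 7.97 and 7.83 to 7.90), and basal keratinocyte genes 0 of 8 lower and 4 higher (11.01 to 11.03 and 10.84 to 10.92). Companion layer keratins had 0 of 5 lower and 1 higher, with array means over the 5 genes of 8.64 to 8.76 and 8.57 to 8.70. The 1 that rose was Krt6a, with means of 9.31 in clock-positive and 8.41 in clock-negative cells. No defining marker has a true 0 on this scale. The counts of some lists moved with scaling: melanocyte genes had 2 lower after quantile normalization or cyclic loess, sebocyte genes 0 lower under all 3 scalings and 1 higher under these same 2, and companion layer keratins 2 lower after cyclic loess. Basal keratinocyte genes had 1 lower and 3 higher after quantile normalization or cyclic loess. Fibroblast and papilla genes had 0 lower after median centring or quantile normalization. They had 0 higher after quantile normalization or cyclic loess. The fibroblast and sebocyte lists hold 8 genes each, and their shares were not tested against those of all probe sets. The part of these cells in the fall of the keratin-associated proteins was not tested, and fewer cells of a type and less RNA per cell cannot be told apart in bulk samples.

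In the epidermis, basal cells without Bmal1 were set against wild-type cells. No keratin-associated protein passed the test between genotypes: 0 of 45 probe sets passed in limma, 0 had an unadjusted p under 0.05, and 22 were lower and 23 higher. Few probe sets passed at all, 0.0451% lower and 0.0243% higher of 28853 tested, and 4.77% and 2.54% at an unadjusted p under 0.05. The median change of the members was 0.00 and that of all probe sets 0.01. Wild-type and KO arrays did not overlap for 2 members, Krtap10-10 and Krtap10-4, both lower in the KO, against 7.33% of all probe sets lower without overlap and 4.88% higher.

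The 4 members with the smallest p-values had overlapping groups. Krtap6-3 read 6.59, 5.82 and 6.07 in the 3 wild-type arrays, taken in number order, against 6.23, 6.92 and 6.87 in the KO (0.51 ± 0.26, adjusted p = 0.763). Krtap24-1, a cuticle protein in human hair, read 6.84, 6.35 and 6.46 against 6.65, 6.90 and 7.16 (0.35 ± 0.18, adjusted p = 0.763). In both, wild-type array 1 lay among the KO arrays. Krtap4-6 read 7.36, 7.0 and 7.15 against 6.93, 6.79 and 7.11 (−0.23 ± 0.13, adjusted p = 0.784). Krtap8-1 read 7.55, 8.10 and 7.23 against 7.01, 7.31 and 7.44 (−0.37 ± 0.23, adjusted p = 0.798), a spread set by wild-type array 2. Krtap10-4, Krtap3-2, Krtap7-1, Krtap15, Krtap4-1 and Krtap10-10 followed with changes between −0.17 and 0.17. The 95% interval of the change lay within 1.5-fold either way for 33 of 45 members and within 2-fold for 42, with outer bounds of −0.93 and 1.18 over all members.

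The epidermis arrays differed from one another in a way that crossed the genotypes. KO array 3 gave the highest of the 6 values for 23 of 45 members and wild-type array 1 for 13, while KO array 1 gave the lowest for 28. Within their groups, wild-type array 1 was highest for 36 members and KO array 3 for 38. Averaged over all 45, the deviation from the 6-array mean was 0.15, −0.08 and −0.11 for the wild-type arrays in number order, and −0.22, 0.05 and 0.21 for the KO arrays. Family 19 showed the widest swing of the 4 families with at least 4 probe sets among wild-type arrays, at 0.35, −0.22 and −0.35, and at −0.35, 0.20 and 0.37 in the KO. Family 5 stood at 0.25, −0.14 and −0.16 and at −0.37, 0.05 and 0.36, and family 6 at 0.18, −0.26 and −0.21 and at −0.30, 0.26 and 0.32. Family 4 was flatter, between −0.13 and 0.15. Hair keratins varied between −0.07 and 0.06 over the same arrays, with 0 of 13 past the threshold. Other lists also swung over these arrays, with cornified envelope genes between −0.36 and 0.37 and T cell genes between −0.50 and 0.90. Sebocyte genes ran between −0.33 and 0.19 and hair lineage factors between −0.23 and 0.16. Wild-type array 1 was the lowest of the wild-type arrays in these 4 lists, where it was the highest for the keratin-associated proteins. The array mean of all probe sets stayed within 0.02 of the 6-array mean.

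**Figure D4:**
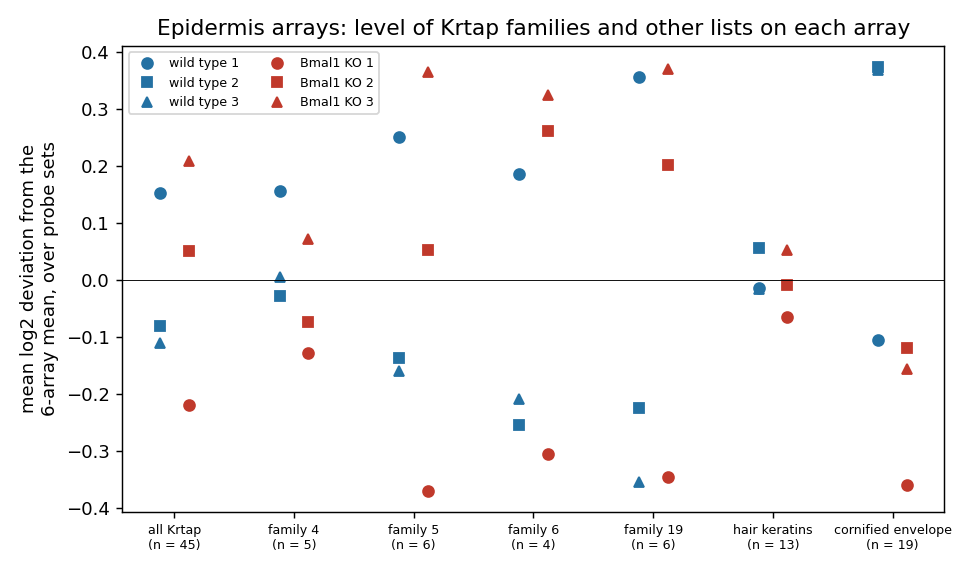
Mean log2 deviation from the 6-array mean on each epidermis array (points, wild type blue and Bmal1 KO red), for all 45 Krtap probe sets, 4 Krtap families, hair keratins and cornified envelope genes. KO array 3 (0.21) and wild-type array 1 (0.15) are highest and KO array 1 (−0.22) is lowest over all Krtap probe sets, so the genotypes overlap.

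In the epidermis set 0 genes passed in the hair keratin, inner root sheath, shaft formation, companion layer, hair lineage factor, bulge stem cell, basal keratinocyte, cornified envelope, melanocyte, fibroblast and sebocyte lists. At an unadjusted p under 0.05, 5 of 19 cornified envelope genes were lower in the KO, against 4.77% of all probe sets. Flg2, for one, changed by −1.38 ± 0.45 (adjusted p = 0.547). In the T cell list Thy1 rose by 1.19 ± 0.12 (adjusted p = 0.0474). Of the 8 genes, 7 were lower in each KO array than in any wild-type array, as were 7.33% of all probe sets. None of these 7 passed over all probe sets. The widest spread of the T cell list was among wild-type arrays, with array means of 7.99 to 9.08, against 7.68 to 7.75 in the KO.

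The difference between the 2 sets was tested in 1 fit over all 12 arrays, as the change between clock-positive and clock-negative cells minus the change from KO to wild type (wild type minus KO). Its second term has the opposite sign to the KO minus wild type values given above, so that wild type, like clock-positive, comes first. At an adjusted p under 0.05 in limma, it was called below 0 for 28 of 45 members and above 0 for 0. Of all 28101 probe sets, 5.76% and 5.34% were so called. Krtap6-1 differed by −2.36 ± 0.20 (adjusted p = 6.55e-05), Krtap8-1 by −2.23 ± 0.27 (adjusted p = 0.000516) and Krtap6-5 by −1.96 ± 0.20. The other 17 members did not pass, Krtap19-2, Krtap5-1, Krtap19-4 and Krtap24-1 among them. Cell compartment, age of the mice and number pooled also differ between the sets and cannot be told apart from the contrast. Without clock-positive array 1 or without clock-negative array 2 the count was 18.

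**Figure D5:**
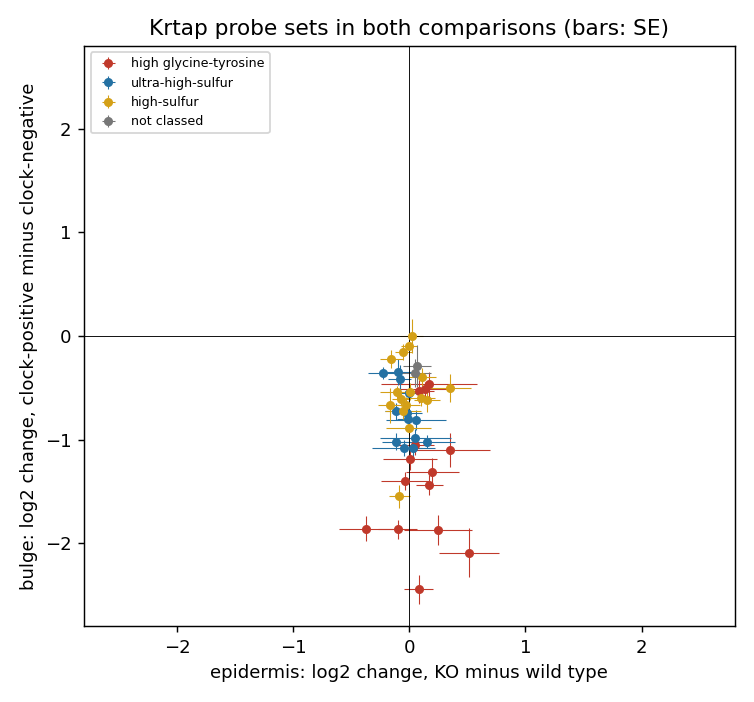
Log2 change of each Krtap probe set in the bulge comparison (y axis, clock-positive minus clock-negative) against its change in the epidermis comparison (x axis, KO minus wild type), with SE bars and equal axis ranges. Bulge changes reach −2.44, while epidermis changes lie between −0.37 and 0.51 around 0.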

How the data were processed

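Gene expression was measured in 12 samples with RNA amplified by a whole transcriptome kit before labelling, per the labels' protocols. The authors deposited log2 values; the submitters' processing notes name RMA, with no version or settings in the sources used here. Of 35512 probe sets, 34760 have bulge values, 28853 epidermis values and 28101 both. The columns of each set have their own medians, so separate normalization is likely. Groups follow the sample titles, and 0 of the 12 columns were identical. Symbols come from the platform annotation, and all 44 member genes matched RefSeq (GRCm38.p6) with the same symbol.

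Each comparison was fitted on all probe sets of its 6 arrays with limma 3.58.1 (lmFit, eBayes, two-sided) in R 4.3.3, with no filter on dim probe sets, so that each member is accounted for, and Benjamini-Hochberg adjustment over all of them. The script was tested on simulated data. The ± values are limma's standard errors. Members are described by counts and medians with no test over the list. Members, classes and the other gene lists were chosen with earlier results of these data known. Listed genes are read by the probe set of their own single symbol with the highest mean. The members named are the 20 largest called bulge changes, the largest of each family and the 10 smallest epidermis p-values, and in other lists up to 4 genes; further members and genes were named after their values were seen. Classes follow general knowledge of the families. Promoter windows are RefSeq's, aligned with Biopython 1.88 (match 1, mismatch −1, gap −2 and −0.5). Protein sequences were not used here. Alternatives were median centring, quantile normalization, cyclic loess, leaving out the dimmest 30% or 50% of probe sets, probe sets with a listed gene, 1 probe set per symbol, a variance trend, all 12 arrays in 1 fit, the replicate number as a block, and leaving out each array.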

Additional observations from a re-analysis of the deposited data

Results flagged for a closer look

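Changes that differed between the bulge and epidermis sets, by the test of the difference itself, are the results that call for a closer look. Of 45 keratin-associated protein probe sets, 28 had a difference of changes past the threshold in limma, all below 0. Of all probe sets, 5.76% passed the threshold below 0 and 5.34% above 0. The count was 18 without clock-positive array 1 or without clock-negative array 2. The 6 members with the largest bulge change differed by −2.36 (Krtap6-1), −1.58 (Krtap6-3), −1.62 (Krtap6-2), −1.96 (Krtap6-5), −2.23 (Krtap8-1) and −1.63 (Krtap1-5) on the log2 scale. Each was lower in all 3 clock-positive arrays than in any clock-negative array, while wild-type and KO arrays overlapped. The part of tissue, age and pool size in these differences was not tested.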

How the results depend on the processing

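In the bulge, the number of keratin-associated protein probe sets lower in clock-positive cells was 38, where 23.6% of all probe sets were lower. The number ran from 35 to 39 without any 1 array, where 15.7% to 25.5% of all were lower. It was 39 with the replicate number as a block, where 23.4% of all were lower. It was 18 of 18 tested without the dimmest 50%, which leaves fewer members, where 2930 of all 17380 probe sets left were lower. It was 33 of 34 without the dimmest 30%, where 5844 of all 24332 left were lower. Both cuts go by the mean over the 6 bulge arrays, so a member can pass on its clock-negative readings. Krtap6-1 passed the 30% cut with means of 4.95 in clock-positive and 7.39 in clock-negative cells. Krtap6-3 passed the 50% cut with means of 5.98 and 8.07. The counts and medians after these cuts therefore do not test whether low clock-positive readings matter. Higher members were 0 under every alternative run. The median change of −0.72 became −0.58 with median centring, which moved the median of all probe sets from −0.05 to 0.09, −0.93 without the dimmest 30% and −0.90 without the dimmest 50%, and ran from −0.77 to −0.68 without any 1 array. Over all 34760 probe sets, 8200 fell and 6993 rose as deposited, and 4134 and 11355 after median centring. These counts were 3839 and 4658 after quantile normalization and 4361 and 4141 after cyclic loess. Without the dimmest 50% they were 2930 and 7170 of 17380. In the epidermis 0 members passed under each of the 16 alternatives, and the median ran from −0.06 to 0.10 without any 1 array. The count of members whose changes differed between the sets, 28, ran from 18 to 31 without any 1 array, alternatives chosen after seeing the data. Cyclic loess turned the sign of 3 small called changes in other lists, Dst to −0.028, Fasn to −0.01 and Pparg to 0.007, and Krtap14, not called as deposited, went from −0.15 to 0.09 there and to 0.08 under quantile normalization; no named keratin-associated protein that was called changed sign. With the block, Krtap24-1 lost its call (adjusted p = 0.0504) and Krtap17-1 and Krtap31-1 gained one (0.0308 and 0.0219). Whether replicate numbers pair samples is not known here. Deviations of same-numbered samples correlated at 0.10, 0.15 and −0.09 in the bulge and at −0.70, −0.23 and −0.65 in the epidermis. Differently numbered epidermis samples ran from −0.50 to 0.69, highest for KO array 3 with wild-type array 1. Such links across genotypes are not modelled in the main fit, and with 3 arrays per group they cannot show whether samples were paired. The block left 0 members called in the epidermis. Similar sequence, no detection values and 3 arrays per group limit what single probe sets show.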
